A study of Mus musculus with 16 samples.

Results

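Heat shock proteins and their cochaperones were followed across 4 diet groups through 10 genes: Hspa1a, Hspa1b, Hspa8, Hspa5, Hsph1, Dnajb1, Hspb1, Cryab, Hsp90aa1 and Hspd1. The genes were taken as a list by symbol, and their probes were found through the RefSeq accession that the array design gives each probe. All 10 genes were measured, with 16 probes in all, among 24826 genes tested, of which 15019 had a symbol. Each of the 10 genes passed the filter on dim probes.

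The tissue was the tibialis anterior, a fast-twitch muscle along the shin, taken from mouse offspring in a model of low birth weight. Dams of the control groups were not restricted, and dams of the undernourished groups received 50% less food in week 3 of gestation. Offspring of both kinds were fed ad libitum (AL) or were calorie restricted (CR), and the groups are named by dam and then by offspring diet (control AL, control CR; undernourished AL, undernourished CR). Each group had 8 mice. Their RNA was pooled by 2, which makes 4 pools and 4 arrays per group, 16 arrays in all. The labels name no genetic change in any group. The strain, sex and age of the mice, the length and degree of the calorie restriction, and the litters that a pool came from are not given in the sources used here, so the tests measure the spread between pools.

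Heat shock proteins are molecular chaperones that bind unfolded proteins. HSP70 proteins work in cycles of ATP binding and hydrolysis, which J-domain proteins start and nucleotide exchange factors end, and pass some clients on to HSP90, while small heat shock proteins hold unfolding proteins without ATP and sit at the Z-discs of muscle. When unfolded protein accumulates, heat shock factor 1 binds heat shock elements in the promoters of the inducible members, and muscle makes more of them after exercise, heat or injury.

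Promoters of the inducible members are shown because they differ in the heat shock element, the sequence through which this response works. A promoter of 250 bases before the start was at hand for 7 of the 10 genes (RefSeq, GRCm38.p6), and Hspa8, Cryab and Hsp90aa1 had none. A heat shock element of 2 units was searched as GAANNTTC or TTCNNGAA, which covers both strands, and stood in 12.8% of 32851 promoters of the same length. It occurred in 5 of the 7 genes and is in capitals below.
Hspa1a, chr17:34972157-34972406, minus strand: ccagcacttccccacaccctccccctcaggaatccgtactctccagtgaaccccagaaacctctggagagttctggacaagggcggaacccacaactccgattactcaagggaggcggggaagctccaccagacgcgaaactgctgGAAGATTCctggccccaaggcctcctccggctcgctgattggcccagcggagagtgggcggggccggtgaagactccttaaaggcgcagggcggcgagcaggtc
Hspa1b, chr17:34959239-34959488, minus strand: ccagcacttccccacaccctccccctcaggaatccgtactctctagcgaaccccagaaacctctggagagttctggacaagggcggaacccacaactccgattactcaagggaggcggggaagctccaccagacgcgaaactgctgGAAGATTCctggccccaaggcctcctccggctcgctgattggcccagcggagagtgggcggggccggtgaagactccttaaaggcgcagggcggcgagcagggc
Hsph1, chr5:149636316-149636565, minus strand: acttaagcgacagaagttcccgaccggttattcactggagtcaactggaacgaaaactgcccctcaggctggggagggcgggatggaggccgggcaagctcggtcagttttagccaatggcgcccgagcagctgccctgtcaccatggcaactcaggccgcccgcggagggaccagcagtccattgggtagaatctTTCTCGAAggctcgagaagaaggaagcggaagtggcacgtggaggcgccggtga
Hspb1, chr5:135887669-135887918, plus strand: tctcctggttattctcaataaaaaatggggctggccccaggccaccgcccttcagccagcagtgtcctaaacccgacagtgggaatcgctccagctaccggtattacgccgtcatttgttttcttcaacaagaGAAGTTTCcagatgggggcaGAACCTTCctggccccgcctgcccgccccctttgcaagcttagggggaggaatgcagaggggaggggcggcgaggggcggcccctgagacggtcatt
Hspd1, chr1:55087933-55088182, minus strand: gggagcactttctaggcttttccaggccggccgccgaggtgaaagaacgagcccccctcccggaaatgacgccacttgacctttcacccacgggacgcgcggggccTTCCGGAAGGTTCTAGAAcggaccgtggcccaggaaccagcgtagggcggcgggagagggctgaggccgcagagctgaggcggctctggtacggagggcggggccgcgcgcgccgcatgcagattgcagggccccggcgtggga
Hspa1a and Hspa1b are neighbouring genes on chromosome 17, and their promoters shared 247 of 250 bases (98.8%), with the element beginning 104 bases before the start in both. Hspb1 held 2 elements, beginning 117 and 97 bases before its start. Hspd1 held 3 overlapping matches, which together make 4 alternating units in a row. A run of 3 units, GAANNTTC followed after 2 bases of any kind by GAA, read on either strand, stands in 0.466% of promoters and matched Hspd1 at 2 places, beginning 144 and 139 bases before the start. Of its 2 listed starts, the match belongs to the one printed. Hsph1 had 1 element, 54 bases before the start printed. Dnajb1 held no match in either of its 2 windows. Hspa5, the chaperone of the endoplasmic reticulum, answers to another stress and is shown for its endoplasmic reticulum stress element, searched as CCAAT, 9 bases of any kind and CCACG on both strands and found in 0.113% of promoters. It contains a CCAAT box and is in capitals.
Hspa5, chr2:34771840-34772089, plus strand: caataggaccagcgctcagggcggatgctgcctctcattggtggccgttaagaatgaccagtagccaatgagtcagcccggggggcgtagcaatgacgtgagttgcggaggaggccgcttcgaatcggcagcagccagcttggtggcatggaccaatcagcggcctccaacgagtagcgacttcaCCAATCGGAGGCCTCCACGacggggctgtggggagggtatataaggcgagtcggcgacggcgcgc
The element began 65 bases before the Hspa5 start. These matches describe letters in a window; binding was not measured.

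Levels are given as log2 of the processed signal relative to the 75th percentile of the same array, so that 0 is a spot as bright as that percentile and each unit is a factor of 2. The 75th percentile was 387 to 829 signal units per array, 66.4% to 78.5% of spots were well above background, and no spot was saturated. Arrays of the AL groups lay on slides 1 and 2 and were scanned on one day, and arrays of the CR groups lay on slides 3 and 4 and were scanned on another, so scan day and offspring diet cannot be told apart. All 10 skeletal muscle markers (Acta1, Ckm and others) were well above background on every array. Brain markers were present on the AL arrays: the median level of the 15 genes was -0.66 to 3.0 on control AL, -1.81 to 0.42 on undernourished AL, -6.08 to -5.98 on control CR and -6.36 to -5.53 on undernourished CR arrays. Of these 15 genes 7 to 12 were well above background on CR arrays, and 12 to 15 on AL arrays. Their sums differed less: 27.3 to 137 times the 75th percentile on control AL and 15.5 to 38.5 on undernourished AL arrays. On CR arrays the sums were 27.0 to 37.4 in control and 28.6 to 31.0 in undernourished offspring. Skin markers summed to 30.6, 68.3 and 24.9 times the 75th percentile on control AL replicates 1, 2 and 3, and to 2.45 to 6.06 on the arrays of the CR groups. In control offspring 14 of 15 brain markers, 8 of 10 skin markers and 5 of 6 leukocyte markers were called lower in CR, and in undernourished offspring 10 of 15, 0 of 10 and 0 of 6. In each kind of offspring 1 of 15 brain markers was called higher in CR. Most brain markers thus moved with offspring diet in both kinds of offspring, and the skin and leukocyte markers were called in control offspring alone. The part of these markers in the comparisons of CR with AL was not tested beyond the alternatives given beside the results.

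None of the 10 genes passed the test for a difference with either diet. With limma and Benjamini-Hochberg adjustment over all genes, 0 of 10 passed an adjusted p of 0.05 for CR against AL in control offspring, where 32.3% of all genes were called, and 0 of 10 in undernourished offspring, where 20.3% were. The same test called 0 of 10 for undernourished against control dams in AL offspring (0.0322% of all genes) and 0 of 10 in CR offspring (0% of all genes), and 0 of 10 for the interaction of both diets (0.00403% of all genes, 1 gene). At an unadjusted p under 0.05, 3 members stood out in control offspring (Dnajb1, Hspb1 and Hsp90aa1) beside 42.4% of all genes, 1 in undernourished offspring (Hspb1) beside 34.7%, and 0 in each of the other 3 comparisons beside 19.3%, 2.88% and 9.66%. The median log2 difference of the 10 genes was 0.06 for CR against AL in control offspring, as over all genes (0.06), and -0.34 in undernourished offspring against -0.00 over all genes. Single arrays moved these medians: without undernourished AL replicate 4 the second was -0.01, against 0.00 over all genes. Without control AL replicate 4 the first was 0.20, against 0.13 over all genes. In these whole-muscle pools, fewer cells that make a transcript and less of it per cell cannot be told apart.

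**Figure D1:**
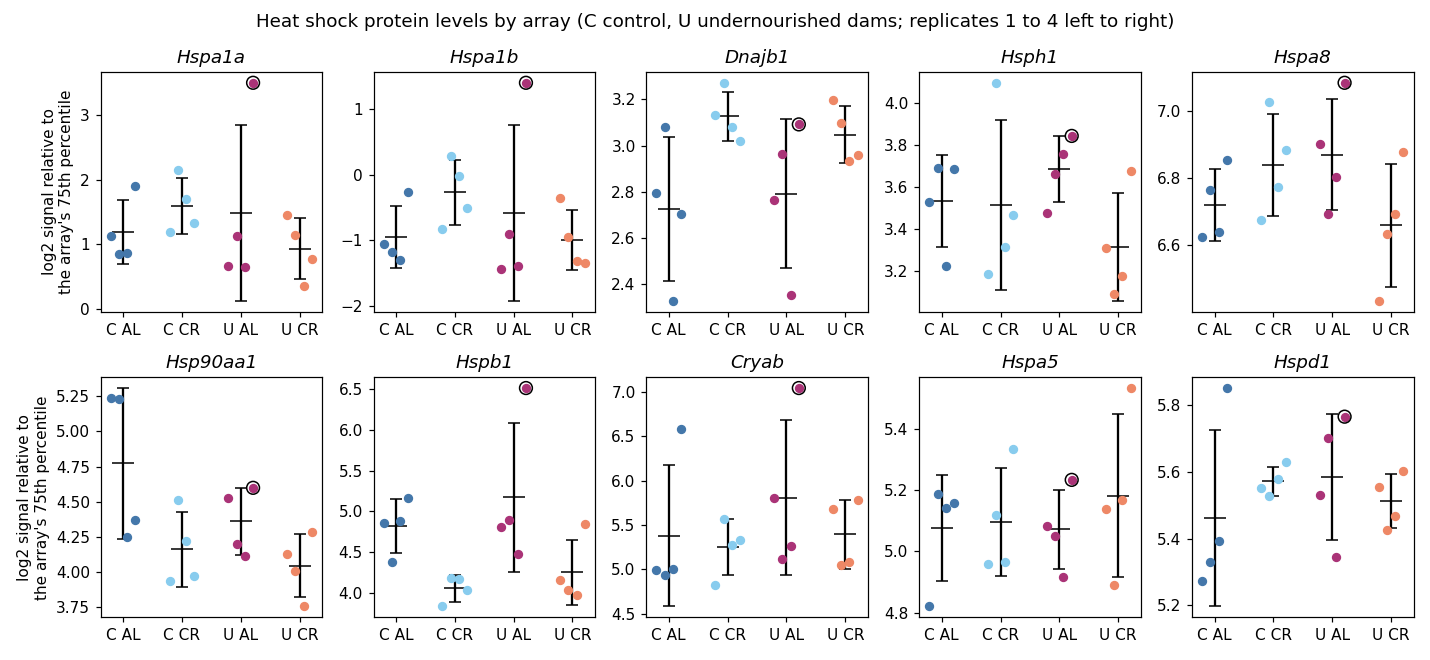
Level of each of the 10 genes on each of the 16 arrays (y axis: log2 signal relative to the 75th percentile of the array; x axis: groups, with C for control and U for undernourished dams); points are pools, horizontal marks are group means, bars are ± 1 SD and the ringed point is undernourished AL replicate 4. The ringed pool is the highest of its group in all 10 panels, and the control CR pools of Hspb1 (3.83 to 4.19) sit below the control AL pools (4.37 to 5.16).

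The inducible HSP70 genes had the widest ranges over the 16 arrays, 3.14 for Hspa1a and 2.84 for Hspa1b, with Hspb1 next at 2.68. These ranges include undernourished AL replicate 4. Within control AL the SD was larger for Cryab (0.80) and Hsp90aa1 (0.54) than for Hspa1a (0.49) and Hspa1b (0.47). Within each of the other groups Hspa1a and Hspa1b had the largest SDs of the genes followed. Hspa1a, whose protein rises from low levels in stressed cells, read 1.13, 0.85, 0.87 and 1.90 in control AL and 1.19, 2.16, 1.71 and 1.33 in control CR. On undernourished AL arrays it read 0.66, 1.12, 0.65 and 3.50, and on undernourished CR arrays 1.46, 1.14, 0.36 and 0.78. A single pool, undernourished AL replicate 4, was the highest of the 16 arrays, with 2.16 as the next highest value, and all 4 groups overlapped. Its neighbour Hspa1b, which encodes a nearly identical protein, read -1.06, -1.18, -1.31 and -0.26 in control AL, -0.83, 0.29, -0.02 and -0.51 in control CR, -1.44, -0.91, -1.39 and 1.40 in undernourished AL, and -0.36, -0.94, -1.31 and -1.35 in undernourished CR. The same pool was again the highest. Because the copies are so alike, a probe of one may also read the other, and their values are uncertain as separate measurements.

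For CR against AL, the Hspa1a difference was 0.41 ± 0.51 (SE; limma adjusted p = 0.581) in control offspring and -0.55 ± 0.51 (0.482) in undernourished offspring, with 95% intervals of -0.69 to 1.51 and -1.65 to 0.55. For Hspa1b the differences were 0.68 ± 0.51 (limma adjusted p = 0.333) and -0.41 ± 0.51 (0.611). The estimates had opposite signs in the offspring of the 2 kinds of dam, and the interaction was -0.96 ± 0.73 for Hspa1a (limma adjusted p = 0.658) and -1.09 ± 0.72 for Hspa1b (0.606). One pool decided those signs: without undernourished AL replicate 4 the difference in undernourished offspring was 0.12 for Hspa1a (limma adjusted p = 0.826) and 0.25 for Hspa1b (0.631). The same omission turned undernourished against control in AL offspring from 0.29 to -0.38 for Hspa1a and from 0.37 to -0.29 for Hspa1b. A second probe of each gene followed the first closely, with a correlation of the deviations from group means of 0.994 over 15 arrays for Hspa1a and 0.928 over 16 arrays for Hspa1b. The differences of CR against AL on the second Hspa1a probe were 0.56 ± 0.57 in control and -0.50 ± 0.53 in undernourished offspring. On the second Hspa1b probe, a dimmer one, they were 1.27 ± 0.54 (limma over probes, adjusted p = 0.0798) and 0.15 ± 0.54 (0.870). The opposite signs of Hspa1b thus did not hold on that probe. The second Hspa1a spot on control CR replicate 4 was an outlier spot and was left out.

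One pool was high for every member on the probe used for the gene. Undernourished AL replicate 4 was the highest of its group for all 10 genes and the highest of the 16 arrays for 5 of them: Hspa1a (3.50), Hspa1b (1.40), Hspa8 (7.08), Hspb1 (6.51) and Cryab (7.05). On the second probe of Cryab the same array, at -0.24, was the lowest of its group. Over all genes tested, this array was the highest of its group for 25.8%. Its deviation from the group mean was 2.02 for Hspa1a, 1.98 for Hspa1b, 1.34 for Hspb1 and 1.24 for Cryab, and 0.16 for Hspa5, the endoplasmic reticulum chaperone. Control AL replicate 4 was the highest of its group for 6 of the 10 genes (45.7% of all genes), undernourished CR replicate 4 for 7 (38.4%) and control CR replicate 2 for 8 (26.9%). Within undernourished AL, the SD lay at percentile 98.9 of all genes for Hspa1a, 98.8 for Hspa1b, 94.8 for Hspb1 and 94.2 for Cryab.

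The array of this pool also stood at an end of several quality measures. Its 75th percentile, 387 signal units, and its share of spots well above background, 66.4%, were the lowest of the 16 arrays. Before division by that percentile, its processed signal was the highest of the group for Hspa1a, Hspa1b, Hspb1 and Cryab. For Hspa8, Hsph1, Dnajb1, Hsp90aa1, Hspa5 and Hspd1 it was not, as with Hspa5 at 14567 against 16084 on replicate 1. The rank of those genes thus depended on the scaling. Adipocyte markers summed to 207 times the 75th percentile there against 118 to 164 on the other arrays of the group. Their median level was the lowest of the group, at -1.31 against -0.40 to 0.23. Brain markers summed to 15.5 against 24.3 to 38.5. Skeletal muscle markers summed to 6425 against 5766 to 6196. The part of these measures in the chaperone levels was not tested.

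**Figure D2:**
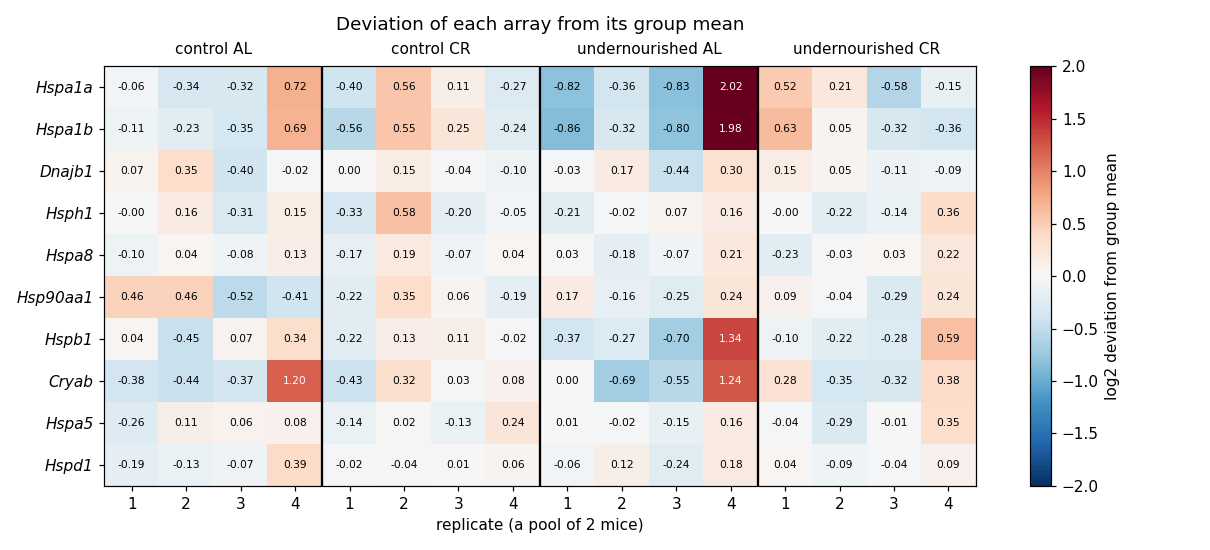
Deviation of each array from the mean of its group (colour and printed numbers: log2 units; columns: the 4 pools of each group; rows: the 10 genes). The column of undernourished AL replicate 4 is positive in all 10 rows, from 0.16 for Hspa5 to 2.02 for Hspa1a.

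The partners of HSP70 differed less between pools. Dnajb1, the J-domain protein that delivers clients to HSP70 and starts its ATP hydrolysis, read 2.79, 3.08, 2.33 and 2.70 in control AL and 3.13, 3.27, 3.08 and 3.02 in control CR. On undernourished arrays it read 2.76, 2.96, 2.35 and 3.09 in AL and 3.20, 3.10, 2.94 and 2.96 in CR. The CR pools spanned 2.94 to 3.27, and control AL replicate 2 and undernourished AL replicates 2 and 4 lay in that range. The difference was 0.40 ± 0.17 in control offspring (1.32-fold higher in CR; limma adjusted p = 0.0875) and 0.25 ± 0.17 in undernourished offspring (0.314), with intervals of 0.04 to 0.76 and -0.11 to 0.62. Over 29 alternatives the control difference ran from 0.22 to 0.84, with an adjusted p of 0.000672 to 0.377, under 0.05 in 6 of them. Without control AL replicate 3 it was 0.27, and without control AL replicate 2 it was 0.52 (limma adjusted p = 0.0393). Hsph1, the HSP110 protein that acts as an exchange factor of HSP70, read 3.22 to 3.69 in control AL, 3.18 to 4.10 in control CR, 3.48 to 3.84 in undernourished AL and 3.09 to 3.68 in undernourished CR. Its differences were -0.02 ± 0.19 (limma adjusted p = 0.959) in control and -0.37 ± 0.19 (0.188) in undernourished offspring.

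The constitutive HSP70, Hspa8, gave different answers from its 2 probes. This chaperone folds new proteins and uncoats clathrin vesicles in unstressed cells. Its brighter probe read 6.62, 6.76, 6.64 and 6.85 in control AL, 6.67, 7.03, 6.77 and 6.88 in control CR, 6.90, 6.69, 6.80 and 7.08 in undernourished AL, and 6.43, 6.63, 6.69 and 6.88 in undernourished CR. All 4 groups overlapped, and the difference was 0.12 ± 0.13 in control (limma adjusted p = 0.502) and -0.21 ± 0.13 in undernourished offspring (0.251). The second probe read 4.81, 5.09, 5.05 and 4.95 in control AL and 5.50, 5.64, 5.71 and 5.69 in control CR. On undernourished arrays it read 5.22, 5.06, 5.36 and 5.45 in AL and 5.81, 5.35, 5.68 and 5.59 in CR. In control offspring these groups did not overlap, as for 18.9% of all probes in this direction, the signal of the second probe was higher in CR by 0.66 ± 0.12 (limma over 32079 probes, adjusted p = 0.000985), and in undernourished offspring the difference was 0.33 ± 0.12 (0.0666). The deviations of the 2 probes correlated at 0.213 over 16 arrays.

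Hsp90aa1, the inducible HSP90, was highest on 2 control AL arrays. It read 5.24, 5.23, 4.25 and 4.37 in control AL, 3.94, 4.51, 4.22 and 3.97 in control CR, 4.53, 4.20, 4.11 and 4.60 in undernourished AL, and 4.13, 4.0, 3.75 and 4.29 in undernourished CR. Replicates 1 and 2 of control AL stood apart from the other 14 arrays. The difference of CR against AL was -0.61 ± 0.23 in control offspring (1.53-fold lower in CR; limma adjusted p = 0.0566; interval -1.11 to -0.12) and -0.32 ± 0.23 in undernourished offspring (0.360). The 2 high arrays are also those with the highest brain markers: relative to the highest array, the sum of 12 of them was 1 and 0.69 there, 0.17 and 0.09 on the other control AL arrays, and 0.03 to 0.19 on undernourished AL arrays. On CR arrays that sum was 0.0032 to 0.0049, below every AL array. As a covariate it thus cannot be told apart from offspring diet and scan day. With that sum as a covariate the Hsp90aa1 difference in control offspring was -0.06 (limma adjusted p = 0.887), and without both high arrays it was -0.15 (0.661). The part of brain transcripts in this difference was not tested. Between dams within slide 1, which holds both arrays, undernourished AL was lower than control AL by a difference of -0.87, and within slide 2 the difference was 0.05.

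Hspb1, a small heat shock protein that binds actin and desmin filaments, was low in CR pools. It read 4.86, 4.37, 4.89 and 5.16 in control AL and 3.83, 4.19, 4.17 and 4.03 in control CR. On undernourished arrays it read 4.81, 4.90, 4.47 and 6.51 in AL and 4.15, 4.04, 3.97 and 4.85 in CR. In control offspring all 4 CR pools lay below all 4 AL pools, a lack of overlap in this direction that 14.5% of all genes showed. The difference was -0.77 ± 0.35 (1.70-fold lower in CR; limma adjusted p = 0.109; interval -1.51 to -0.02) in control and -0.92 ± 0.35 (1.89-fold lower; 0.0752; interval -1.67 to -0.17) in undernourished offspring. Neither passed the threshold. Without undernourished AL replicate 4 the control difference was -0.77 with a limma adjusted p of 0.0122, and the undernourished difference was -0.47 (0.165). Over 29 alternatives the adjusted p was 0.0122 to 0.440 in control and 0.0393 to 0.474 in undernourished offspring, under 0.05 in 3 and 4 of them.

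Cryab, the small heat shock protein alphaB-crystallin, gave opposite signs from its 2 probes. The brighter probe read 5.0, 4.94, 5.01 and 6.58 in control AL, 4.83, 5.57, 5.28 and 5.33 in control CR, 5.81, 5.12, 5.26 and 7.05 in undernourished AL, and 5.68, 5.05, 5.08 and 5.78 in undernourished CR. One pool in each AL group was high, and the groups overlapped. The difference of CR against AL was -0.13 ± 0.42 in control (limma adjusted p = 0.846) and -0.41 ± 0.42 in undernourished offspring (0.522), and without undernourished AL replicate 4 the latter was 0.00 (0.999). The second probe read -0.16, 0.09, -0.26 and -0.02 in control AL and 0.89, 0.66, 0.69 and 0.59 in control CR. On undernourished arrays it read 0.22, -0.02, 0.02 and -0.24 in AL and 0.92, 0.96, 0.76 and 0.07 in CR. It rose in CR by 0.79 ± 0.18 in control offspring (1.73-fold; limma over probes, adjusted p = 0.00312) and by 0.68 ± 0.18 in undernourished offspring (1.61-fold; 0.0132). The high pools of the first probe did not show on the second, and the deviations correlated at -0.31 over 16 arrays. Which Cryab transcript or other sequence each probe reads was not tested.

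Over all 16 probes of the 10 genes, 3 were called higher in CR in control offspring and 0 lower, where 19.1% of all probes were higher and 15.9% lower, 35% together. The 3 were the second probes of Hspa8, Cryab and Dnajb1, the last with a difference of 0.56 ± 0.15 (limma over probes, adjusted p = 0.00925) and with first and second probe correlated at 0.795. In undernourished offspring 1 of 16 was higher, that of Cryab, and 0 were lower, where 11.1% and 11% of all probes were, 22.1% together. Between dams 0 of 16 were called by limma in AL offspring (0.0374% of all probes) and 0 of 16 in CR offspring (0.00312%), and 0 of 16 for the interaction (0.00312%). In addition, 0 of 16 had an unadjusted p under 0.05 in CR offspring and for the interaction, and 1 of 16 in AL offspring. All 3 calls in control offspring were lost without 5 arrays that an earlier analysis had found to hold raised skin or liver transcripts, a setting that leaves 1 control AL array: the second-probe differences were then 0.73 for Cryab (limma adjusted p = 0.176), 0.69 for Hspa8 (0.0638) and 0.82 for Dnajb1 (0.0598). The undernourished call of Cryab was lost in that setting too (0.60, adjusted p = 0.0944) and when only the groups compared were fitted (0.0538).

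**Figure D3:**
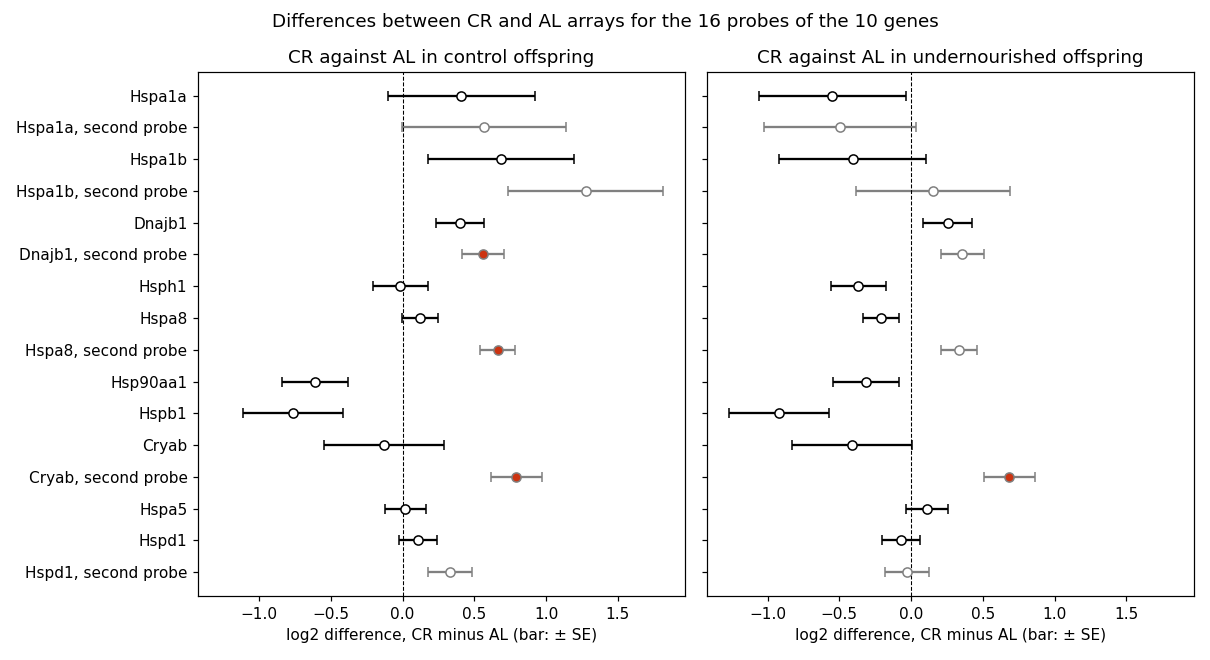
Log2 difference of CR against AL (x axis; points are estimates, bars are ± 1 SE) for the 16 probes of the 10 genes, with the probe used for the gene in black and second probes in grey; filled points passed an adjusted p of 0.05. The filled points are second probes of Dnajb1, Hspa8 and Cryab, and the 2 probes of Cryab lie on opposite sides of 0.

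The chaperones of the organelles differed little between CR and AL on the probe used for the gene. Hspa5, also called BiP, which folds proteins in the endoplasmic reticulum, read 4.82, 5.19, 5.14 and 5.16 in control AL and 4.96 to 5.33 in control CR, with 4.92 to 5.23 in undernourished AL and 4.89 to 5.53 in undernourished CR. Control AL replicate 1 was the lowest of the 16 arrays. The differences of CR against AL were 0.02 ± 0.14 in control (limma adjusted p = 0.939; interval -0.29 to 0.33) and 0.11 ± 0.14 in undernourished offspring (0.627; interval -0.20 to 0.42). Hspd1, the mitochondrial HSP60, read 5.27 to 5.85 in control AL, 5.53 to 5.63 in control CR, 5.34 to 5.76 in undernourished AL and 5.42 to 5.60 in undernourished CR. Its SD in control CR, 0.044, lay at percentile 2.13 of all genes. In undernourished CR it lay at 6.27, in control AL at 42.4 and in undernourished AL at 35.1. The differences were 0.11 ± 0.13 in control (limma adjusted p = 0.563; interval -0.17 to 0.39) and -0.07 ± 0.13 in undernourished offspring (0.734; interval -0.36 to 0.21). A second probe of Hspd1 gave 0.33 ± 0.15 (limma over probes, adjusted p = 0.113) in control and -0.03 ± 0.15 (0.913) in undernourished offspring. The deviations of its 2 probes correlated at 0.490. The partner of Hspd1, Hspe1, the neighbouring gene that encodes HSP10, differed by 0.30 ± 0.22 (limma adjusted p = 0.319) and 0.28 ± 0.22 (0.398).

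For the diet of the dam no member passed the test, nor did any with slide as a block or with the replicate number as a block. In AL offspring 8 of the 10 genes were nominally higher in the undernourished group, with a median of 0.15 against 0.07 over all genes, and values from -0.41 for Hsp90aa1 (± 0.23 SE; limma adjusted p = 0.349) to 0.43 for Cryab (± 0.42; 0.606). Without undernourished AL replicate 4 that median was -0.05. In CR offspring 3 were nominally higher, with a median of -0.10 against -0.00 over all genes, and values from -0.72 for Hspa1b (± 0.51; limma adjusted p = 1) to 0.20 for Hspb1 (± 0.35; 1). Within slides 3 and 4, Hspa1b was lower in undernourished CR by differences of -0.38 and -1.07, and Hspa1a by -0.37 and -0.95.

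Other genes of the chaperone network were followed through 9 lists of 82 genes, of which 79 were measured; Dnajb5, Dnajb11 and Pdia3 were not among the probes tested. In control offspring 23 of the 79 rose and 3 fell in CR (limma; 17.2% and 15.1% of all genes), with a median of 0.21 against 0.06 over all genes. In undernourished offspring 7 rose and 3 fell (10.4% and 9.86%), with a median of 0.07 against -0.00. For the dams' diet 0 of 79 were called by limma in AL and in CR offspring, and 0 of 79 for the interaction. An unadjusted p under 0.05 was held by 14, 3 and 6 of them, beside 19.3%, 2.88% and 9.66% of all genes. In AL offspring 2 were higher and 1 lower with slide as a block, where 1970 of all genes were called against 8 without it, and 3 were higher without control AL replicate 4, where 2319 were. The count for CR against AL in control offspring depended on the AL arrays. Without both control AL arrays of slide 1 it was 10 higher and 2 lower, and with the sum of 12 brain markers as a covariate 7 and 2. Of all 24826 genes 4385 and 3490 were called in these settings. Without the 5 arrays of raised skin or liver signal, which leaves 1 control AL array, 1 was higher (Hsf4) and 0 lower, with a median of 0.01 against -0.11 over all genes. The count also depended on the scale, with 16 higher and 5 lower after quantile normalization and 64 and 0 in the authors' deposited log2 values, on which the median of all genes was 0.29. Of all 24826 genes 8811 and 13991 were called on these 2 scales.

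In control offspring 3 of 4 genes of the heat shock factor list rose in CR: Hsf2, a partner of Hsf1 in development and stress, by 1.04 ± 0.17 (limma adjusted p = 0.000563), Hsf4, known from the lens, by 0.54 ± 0.14 (0.00894), and Hsf1, the main switch of the response, by 0.48 ± 0.15 (0.0271). In undernourished offspring 0 of the 4 were called, and Hsf1 differed by 0.40 ± 0.15 (limma adjusted p = 0.0785). Of all genes 17.2% rose and 15.1% fell in control offspring, and 10.4% and 9.86% in undernourished offspring. Over 29 alternatives the calls of Hsf2 and Hsf4 held in 28 and that of Hsf1 in 19. The Hsf1 call was lost without control AL replicate 1 or 2 or control CR replicate 1 or 2 (highest limma adjusted p = 0.0906) and after quantile normalization, and the Hsf1 and Hsf4 calls were lost without both control AL arrays of slide 1. Of the other HSP70 and HSP110 genes 0 of 8 were called in either comparison, and the smallest p in control offspring was that of Hspa12b, at 0.51 ± 0.21 (limma adjusted p = 0.0750).

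Cochaperones of HSP70 and HSP90 moved in small numbers, where 17.2% of all genes rose and 15.1% fell in control offspring, and 10.4% and 9.86% in undernourished offspring. Among 8 further J-domain genes Dnaja1 rose by 0.54 ± 0.14 (limma adjusted p = 0.00889) and Dnajc7 by 0.44 ± 0.14 (0.0258) in control offspring, and 0 of 8 were called in undernourished offspring. Of 7 exchange factors and adaptors, Bag2, an inhibitor of the ubiquitin ligase CHIP, rose in both, by 0.65 ± 0.14 (limma adjusted p = 0.00253) and 0.47 ± 0.14 (0.0270). Stub1, which encodes CHIP itself, rose in control offspring by 0.52 ± 0.13 (limma adjusted p = 0.00755). Of 12 HSP90 genes, Fkbp4, an immunophilin of steroid receptor complexes, rose by 1.01 ± 0.14 (limma adjusted p = 0.000178) in control and 0.46 ± 0.14 (0.0345) in undernourished offspring. Stip1, which joins HSP70 to HSP90, rose in control offspring by 0.56 ± 0.11 (limma adjusted p = 0.00173). Fkbp5, an immunophilin induced by glucocorticoids, fell in undernourished offspring, at -1.33 ± 0.41 (limma adjusted p = 0.0324), and was -0.60 ± 0.41 (0.287) in control offspring. Over 29 alternatives the calls in control offspring held in 28 for Fkbp4, 27 for Stip1, 26 for Dnaja1 and Bag2, 25 for Stub1 and 19 for Dnajc7, and those in undernourished offspring in 24 for Bag2, 22 for Fkbp5 and 18 for Fkbp4. The Dnajc7 call was lost without control AL replicate 1 or 2 or control CR replicate 2 or 3 (highest limma adjusted p = 0.0832). In undernourished offspring single arrays ended the call of Fkbp4 (AL replicate 1, 2 or 3, CR replicate 1, 2 or 4; highest limma adjusted p = 0.0964), of Bag2 (AL 1 or 2, CR 1, 3 or 4; 0.0733) and of Fkbp5 (AL 2, 3 or 4, CR 1 or 3; 0.0999).

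Of 6 other small heat shock proteins 2 rose and 0 fell in control offspring (17.2% and 15.1% of all genes). In undernourished offspring 1 rose and 0 fell (10.4% and 9.86%). Hspb3 rose in CR by 1.21 ± 0.24 in control (limma adjusted p = 0.00191) and 1.1 ± 0.24 in undernourished offspring (0.00650). Its partner in muscle, Hspb2, which neighbours Cryab in the genome, rose in control offspring by 0.82 ± 0.23 (limma adjusted p = 0.0135). The Hspb3 calls held in 27 and 29 of 29 alternatives and the Hspb2 call in 24. The Hspb2 call was lost without both control AL arrays of slide 1, and its difference was -0.03 without the 5 arrays of raised skin or liver signal. The other 4 of the 6 genes were not called in either comparison, among them Hspb7 at -0.16 and -1.04 (limma adjusted p = 0.814 and 0.106) and Hspb6 at -0.22 and -0.69 (0.582 and 0.0920).

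Of 9 mitochondrial chaperones and proteases 4 rose and 1 fell in control offspring, where 17.2% and 15.1% of all genes did: Trap1, the mitochondrial HSP90, rose by 0.71 ± 0.13 (limma adjusted p = 0.00106), Dnaja3, a mitochondrial J-domain protein, by 0.70 ± 0.11 (0.000288), and Clpx, the unfoldase of the ClpXP protease, fell, at -0.52 ± 0.16 (0.0245). In undernourished offspring 1 of the 9 rose and 1 fell, where 10.4% and 9.86% of all genes did. Dnaja3 rose there by 0.54 ± 0.11 (limma adjusted p = 0.00330) and Clpx fell, at -0.76 ± 0.16 (0.00569). Of the 8 TRiC subunits, which fold actin and tubulin, 5 rose in control offspring, led by Cct6a at 0.66 ± 0.12 (limma adjusted p = 0.00117), Tcp1 at 0.59 ± 0.10 (0.000711) and Cct4 at 0.50 ± 0.12 (0.00533). In undernourished offspring Tcp1 alone of the 8 was called, at 0.45 ± 0.10 (limma adjusted p = 0.00785), beside 10.4% of all genes that rose. Over 29 alternatives the calls in control offspring held in 28 for Trap1, Dnaja3 and Tcp1, 27 for Cct6a, 25 for Cct4 and 23 for Clpx, and none of the 6 held without the 5 arrays. The Clpx call was also lost without control AL replicate 3 or control CR replicate 1 or 2 (highest limma adjusted p = 0.0713).

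Of 17 other genes of the endoplasmic reticulum and its stress response 3 rose and 2 fell in control offspring, shares near those of all genes (17.2% and 15.1%). Ddit3, the stress transcription factor CHOP, rose by 0.94 ± 0.15 in control (limma adjusted p = 0.000490) and 0.96 ± 0.15 in undernourished offspring (0.000901). Xbp1, a transcription factor of the unfolded protein response, rose by 0.65 ± 0.22 in control offspring (limma adjusted p = 0.0353), and Dnajb9, a cochaperone of Hspa5, fell, at -0.50 ± 0.18 (0.0471). In undernourished offspring 2 rose and 1 fell, where 10.4% and 9.86% of all genes did: besides Ddit3, Calr, the calcium-binding chaperone calreticulin, rose by 0.60 ± 0.11 (limma adjusted p = 0.00195), and Atf6, a sensor of unfolded protein, fell, at -0.55 ± 0.15 (0.0223). Over 29 alternatives the calls of Ddit3 held in 28 and 29, and that of Calr in 29, while Atf6 held in 21, Xbp1 in 16 and Dnajb9 in 11. Single arrays ended the call of Xbp1 (control AL replicate 1 or 4, any control CR replicate; highest limma adjusted p = 0.112) and of Atf6 (undernourished AL replicate 3 or 4, undernourished CR replicate 1, 2 or 3; 0.0687). The Dnajb9 call was lost on leaving out each of 12 arrays in turn, all but control AL replicate 1, control CR replicate 4, undernourished AL replicate 1 and undernourished CR replicate 4 (highest limma adjusted p = 0.123).

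**Figure D4:**
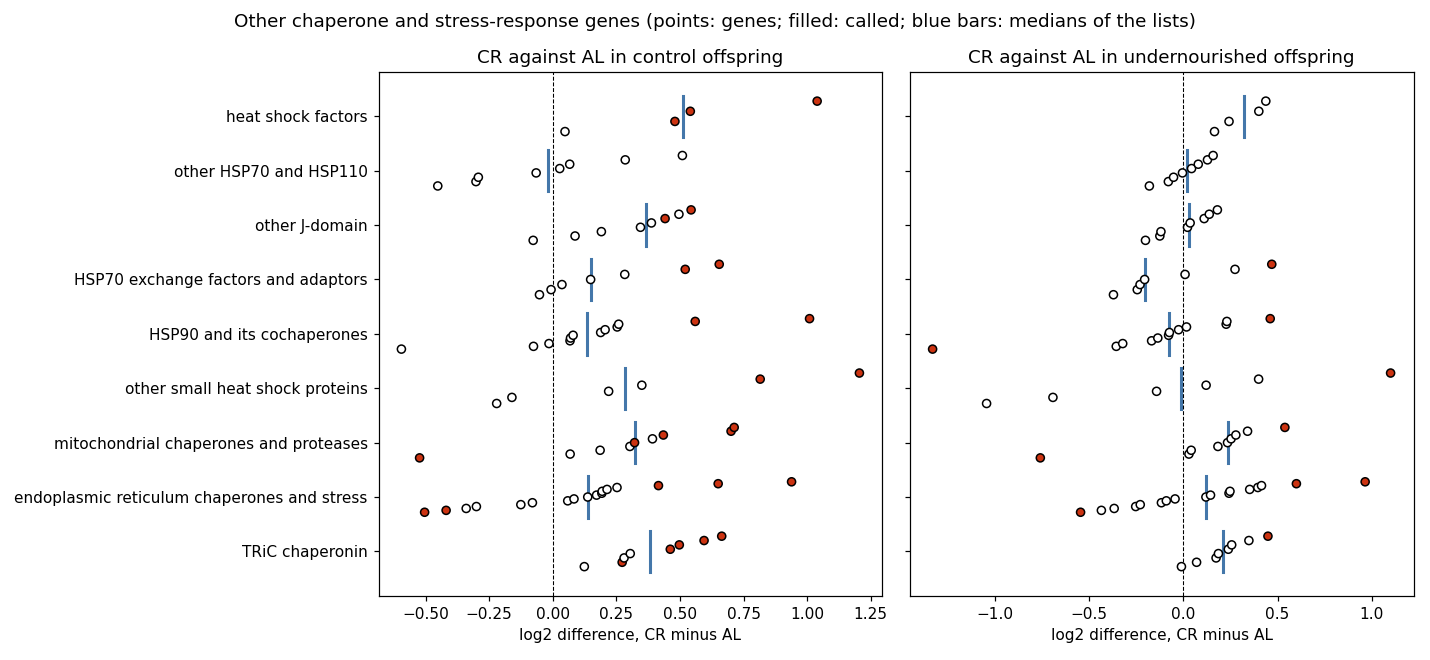
Log2 difference of CR against AL (x axis) for the 79 measured genes of 9 chaperone and stress-response lists (rows; points are genes, filled where called at an adjusted p of 0.05, blue bars are list medians). Filled points lie mostly right of 0 in control offspring, 23 of 26, and are fewer in undernourished offspring, 7 higher and 3 lower.

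The genes whose deviations from group means followed each member most closely over the 16 arrays were found among all tested genes with a symbol. These correlations are descriptions over arrays that share their groups and scaling. For Hspa5 they were Cnpy2 (0.916), Manf (0.887) and Ostc (0.865), 3 genes of the endoplasmic reticulum. For the small heat shock proteins they were Tubb6 (0.956), Prkar1a (0.903) and Plscr1 (0.898) with Hspb1, and Enah (0.932), Acot9 (0.928) and Lmna (0.915) with Cryab. For Hspa1a they were Rcan1 (0.878), Fgf1 (0.874) and Klra4 (0.871), and for Hspa1b Fgf1 (0.898), Caskin2 (0.882) and Cdc25c (0.872). Hspd1 was followed by Hnrnph1 (0.964), Senp8 (0.947) and Atp5e (0.938), and Hsp90aa1 by Efr3b (0.920), Stard3nl (0.889) and Fank1 (0.885). The leading genes were Ppwd1 (0.848) with Hspa8, Zfp948 (0.920) with Hsph1 and Zfp667 (0.857) with Dnajb1.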

How the data were processed

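RNA of 16 pools was hybridised to 1-colour Agilent arrays, and the authors deposited each array's scanner output and a table of log2 values. The scanner files came from Agilent's Feature Extraction software, version 10.5.1.1 per the submitters' processing notes. The processed signal used here is an intensity that, per the file headers, Feature Extraction had background-subtracted; flags for outlier spots and spots well above background, and the slide, scan and probe columns, came from the same deposited files, as did the RefSeq accession by which 24844 of 41174 probes were matched to 17178 symbols. The sources used here do not state how the authors normalized their log2 values; their column medians ran from -0.10 to -0.00 on AL and from 0.02 to 0.04 on CR arrays, their probes were centred on 0, over all probes their differences between arrays followed those of the scanner values (median correlation 0.941 and slope 0.713 within a scan day, a narrower scale), with a median intercept of -0.37 between days. They served as an alternative only.

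Outlier spots (53 to 176 per array) were left out, log2 of the processed signal minus the array's 75th percentile was averaged over spots of a probe, and 32079 probes were kept, those well above background on 4 or more arrays. The probe with the highest mean stood for a gene. The comparisons used limma's lmFit and eBayes (version 3.58.1, R 4.3.3; all 16 arrays, Benjamini-Hochberg over 24826 genes, threshold 0.05), and each probe of a member in the same fit over all probes; the fit was tested on simulated data. Named genes outside the 10 members are, per list, up to 3 called genes with the largest difference in each comparison of CR with AL and up to 2 in the others, or the smallest p where none was called; Hspe1, Hspb6 and Hspb7, and Fkbp5 in control offspring, were named after their values were seen. The members and lists were chosen with earlier results of these data known. Same-numbered arrays of the AL groups, which share slides, deviated together (correlations of 0.11 to 0.44 over genes in 4 of 4 pairs, each over 0.1). No other combination of groups met this, and 6 of 16 arrays went best with an array of their own number. Same-numbered arrays of the CR groups also share slides, and their correlations were 0.02 to 0.23, with 2 of 4 over 0.1. Because of the AL pairs the replicate number was tried as a block. Because these AL arrays share slides, a pairing of the pools and an effect of the slide cannot be told apart. Array number limits the precision.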

Additional observations from a re-analysis of the deposited data

Results flagged for a closer look

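Among 40 groups of 4 arrays (10 genes in 4 groups), 3 held an array whose gap to its nearest neighbour was a larger share of the group's range than the 95% critical value of Dixon's test; chance alone passes it in about 1 of 20 groups. Hspa1a in undernourished AL had a share of 0.835, with replicate 4 at 3.50 and the others at 0.65 to 1.12. Cryab in control AL had a share of 0.956, with replicate 4 at 6.58 and the others at 4.94 to 5.01. Hspa5 in control AL had a share of 0.873, with replicate 1 at 4.82 and the others at 5.14 to 5.19.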

How the results depend on the processing

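Of the 10 members in 5 comparisons, each tried under up to 30 alternatives, 1422 values kept their side of the threshold, 25 passed it only under an alternative and 3 turned sign and passed. The 3 that turned came from the authors' deposited log2 values, on which the median of all genes was 0.29 and 0.24 for CR against AL in control and undernourished offspring: Hsph1 in control offspring was 0.45 there, and Hspa8 and Hspd1 in undernourished offspring were 0.41 and 0.53. Signs alone turned more often: in control offspring that of Hsph1 did in 9 and that of Hspa5 in 8 of 29 alternatives. For the dams' diet in CR offspring the lowest limma adjusted p of a member was 0.999 under any alternative. Those values thus say little about stability. The Hspb2 difference in control offspring was -0.0318 without the 5 arrays of raised skin or liver signal. The cause was not tested. The other settings that moved the median of all genes by over 0.1 were normexp (-0.17 and -0.24), no filter on dim probes (-0.09 and -0.15) and, in control offspring, the omission of those 5 arrays (-0.11) and the sum of 12 brain markers (-0.06) or of all 15 (-0.04) as a covariate and the omission of both control AL arrays of slide 1 (-0.04). Normexp on the median signal, the sum of 12 markers, the omission of both arrays and the replicate block in the AL groups alone were chosen after seeing the data.

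Members called in control offspring, 0 in the report, numbered 2 after quantile normalization (Hspb1 and Hsp90aa1, lower) and with the mean of a gene's probes (Hspa8 and Dnajb1, higher), and 6 on the authors' values (all higher). Of all 24826 genes these 3 settings called 8811, 8226 and 13991. Members called numbered 1 with normexp, with probes well above background on all arrays, with only the groups compared and without both control AL arrays of slide 1. These settings called 12020 of 24792, 6976 of 19189, 6930 of 24826 and 4385 of 24826 genes. In undernourished offspring members called numbered 1 after quantile normalization and 4 on the authors' values, where 5429 and 11850 of 24826 genes were called. Leaving out 1 array at a time gave 0 to 1 in both comparisons and 0 to 0 in the other 3: in control offspring the 1 was Dnajb1 without control AL replicate 2, Hsp90aa1 without control AL replicate 3 or 4 or control CR replicate 2, and Hspb1 without undernourished AL replicate 4, and in undernourished offspring it was Hspb1 without undernourished AL replicate 3 or undernourished CR replicate 4.

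Genes called in control offspring, 8007, numbered 12020 with normexp, 12342 with no filter, 13991 on the authors' values, 909 without the 5 arrays, 5279 and 3490 with the sum of 15 or 12 brain markers and 4385 without both control AL arrays of slide 1. In undernourished offspring, 5038, they numbered 12956, 10075 and 11850 with normexp, no filter and the authors' values. The share higher in CR among called genes, 53.2% and 51.4%, was 62.9% and 62.4% after quantile normalization, 33.0% and 22.5% with normexp, 35.3% and 28.8% with no filter and 81.4% and 87.1% on the authors' values, and in control offspring 32.8% without the 5 arrays and 40.7% with the sum of 12 markers. For undernourished against control in AL offspring, 8 called genes became 16 after quantile normalization, 2 with probes well above background on all arrays, 0 on the authors' values or with only the groups compared, 1970 with slide as a block, 1 without the 5 arrays, 5 and 4 with the sums of 15 and 12 markers and 3 without both arrays. For the interaction, 1 called gene became 12 with slide as a block and 0 with probes well above background on all arrays, the authors' values, the replicate block, either sum of markers or without both arrays. Leaving out 1 array at a time gave 6182 to 9066 called genes in control offspring, 3665 to 5850 in undernourished offspring, 2 to 2319 and 0 to 0 for the dams' diet in AL and CR offspring and 0 to 91 for the interaction; 2319 and 91 came without control AL replicate 4.

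Of 20 named list genes called in control offspring, 18 stayed called on the authors' values, 17 after quantile normalization, 8 with the sum of 12 brain markers, 11 without both control AL arrays of slide 1 and 1 without the 5 arrays.

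For undernourished against control in AL offspring, where same-numbered arrays share slides and deviated together, the replicate block gave 6 called genes over all 16 arrays and 0 in the AL groups alone, against 8, with 0 members called in either. Between other groups the same-numbered arrays did not all deviate together (correlations of -0.14 to 0.23). Among these, the CR groups, whose same-numbered arrays also share slides, gave 0.02 to 0.23. With the replicate block 1 member was called in each comparison of CR with AL: Dnajb1 in control offspring (0.40, limma adjusted p = 0.0473) and Hspb1 in undernourished offspring (-0.92, 0.0393), with 7962 and 5059 genes called.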
